A study of Mus musculus with 2 samples.

Results

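Most microRNA hairpins are cut out of a longer transcript in the nucleus by Drosha and its partner DGCR8, and are then cut again by Dicer in the cytoplasm. A few reach Dicer without Drosha. Capped-end hairpins are made directly by transcription, so that the hairpin begins at the capped first base of the RNA. Mirtrons are short introns that the spliceosome removes and that fold into a hairpin once the lariat is opened. The hairpins described here were the capped-end Mir320 and Mir484 and the mirtrons Mir877 and Mir1224, taken by name from the 2202 microRNA genes counted, so 4 of 2202. That these hairpins bypass Drosha is background knowledge, since no sample lacked Drosha or Dicer.

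The data were microRNA-seq counts of adrenal glands from B6CASTF1/J males, which are C57BL/6J by CAST/EiJ hybrids, aged 25 days. There was 1 group of 2 libraries, with no treatment named in the labels, and no second group. The animals have separate numbers in the labels but a single donor entry. SDs and p-values therefore cover only these libraries, and their spread may be technical. Replicate 1 held 3588361 and replicate 2 held 4541373 sense-strand counts on microRNA genes, and levels are given as counts per 1000000 of these (CPM). Reads carry no molecular identifiers, so the intervals below cover counting error only.

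The RefSeq sequences of the hairpins (build GRCm38.p6, which is mm10) show how the mirtrons differ from the capped-end Mir484, and 3 of the 4 members matched an entry. The hairpins below are written 5′ to 3′, with the annotated mature arms in capitals. Mir484 lies at chr16:14159626-14159692 on the plus strand, Mir877 at chr17:35960730-35960814 on the minus strand and Mir1224 at chr16:20604452-20604536 on the plus strand.
Mir484: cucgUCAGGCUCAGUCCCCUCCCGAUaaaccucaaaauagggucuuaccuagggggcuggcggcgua
Mir877: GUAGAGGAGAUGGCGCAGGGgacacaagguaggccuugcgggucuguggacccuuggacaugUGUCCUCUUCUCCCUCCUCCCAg
Mir1224: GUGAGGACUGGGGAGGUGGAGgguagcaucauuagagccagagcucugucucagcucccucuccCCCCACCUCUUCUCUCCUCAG
Both mirtron hairpins begin with GU and end with AG, the letters of a spliced intron, and the 5′ mature arm of each starts at base 1 of the hairpin. The single annotated arm of Mir484 starts at base 5. Of 1005 RefSeq hairpins, 30 (2.99%) begin with GU and end with AG. In the last 25 bases, 84% of the letters of Mir877 and 88% of those of Mir1224 are C or U, against 48% in Mir484 and a median of 56% over the RefSeq hairpins. These pyrimidine shares exceed those of 98.9% and 99.4% of the RefSeq hairpins. GC content was 58.2% in Mir484, 61.2% in Mir877 and 60% in Mir1224, against a median of 51.7%. Over the 23 hairpins with a RefSeq sequence that fill an annotated intron, the medians were 60.5% for GC content and 72% for C and U in the last 25 bases, so the GC content of the 2 mirtrons was near that of their like and their pyrimidine share above it.

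The mature sequences of the same 3 hairpins are shown for their seeds, the bases that pair with target messages. The seed, bases 2 to 8, is in capitals, and no 2 of the 5 are alike.
miR-484: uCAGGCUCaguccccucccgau
miR-877-5p: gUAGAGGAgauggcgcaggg
miR-877-3p: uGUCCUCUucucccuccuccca
miR-1224-5p: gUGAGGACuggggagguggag
miR-1224-3p: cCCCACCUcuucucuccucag
None of the 5 seeds occurs at bases 2 to 8 of a mature sequence of another gene among the 1738 in the RefSeq table, so 0 other hairpins fall into a seed family with these. The counts are per hairpin and do not separate the 2 arms.

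The annotation placed the mirtrons in their class, and held no transcript start that would do so for the capped-end hairpins. Mir877 (ENSMUSG00000077931.1, 85 bases) fills an 85-base intron of Abcf1, a gene of translation initiation, with 0 bases between hairpin and intron at either end. Mir1224 (ENSMUSG00000080669.1, 85 bases) fills an 85-base intron of Vwa5b2 in the same way. Across the table, 971 hairpins have an annotated same-strand intron around them, of median length 6373 bases. Only 29 of 2202 (1.32%) fill it to within 10 bases at both ends, and 22 of these do so exactly.

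**Figure D1:**
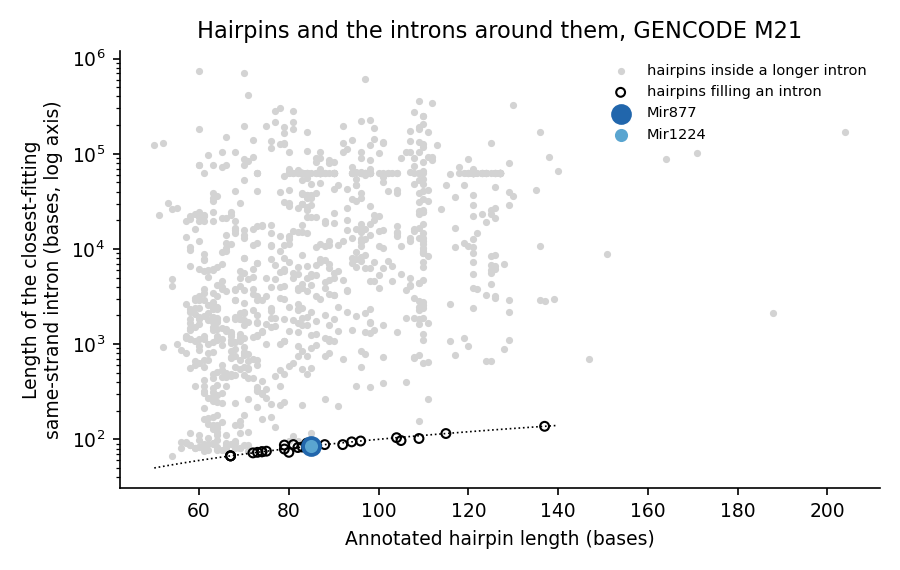
Annotated hairpin length in bases (x axis) against the length in bases of the same-strand intron that fits it most closely (y axis, log scale), for the 971 hairpins with such an intron in GENCODE M21. The dotted curve marks equal lengths. Mir877 and Mir1224 lie on it, both at 85 bases, among the 29 hairpins that fill an intron.

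Mir320 (ENSMUSG00000065528.1, 82 bases, chromosome 14, 70443510 to 70443591, plus strand) and Mir484 (ENSMUSG00000070074.1, 67 bases) lie in no annotated exon or intron of another gene on their strand. The 5′ end of Mir320 is 63 bases from the start of Polr3d, which encodes a subunit of RNA polymerase III and is transcribed the other way from position 70443447. The 5′ end of Mir484 is 359 bases from the start of Marf1, an RNA regulator of oocyte meiosis, which runs the other way from position 14159267. Such a place, within 500 bases of an opposite-strand start, was shared by 105 of the 2202 hairpins (4.77%). Those 105 hairpins held 0.298% of the counts in replicate 1 and 0.301% in replicate 2. Mir320 and Mir484 supplied 90.4% and 90.5% of them. The list was drawn up after the annotation was seen, so both members fall in it by construction and their share is only descriptive. Of the 105 hairpins, 8 were detected, that is, had at least 10 counts in both libraries (7.62%, against 16.0% of all hairpins). The closest annotated start on their own strand was 13966 bases downstream of Mir320, at Phyhip, and 3649 bases downstream of Mir484, at Nde1. The annotation therefore holds no transcript start at either hairpin. Of 25 hairpins whose 5′ end does lie within 10 bases of a same-strand start, 7 were detected (28%, against 16.0% of all hairpins). They were led by Mir677 at 34.3 CPM in replicate 1 and 26.0 CPM in replicate 2, beside a start annotated as a snoRNA.

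All 4 members were detected, among 352 of the 2202 hairpins. Together they held 0.275% of the counts in replicate 1 and 0.279% in replicate 2 (0.277% ± 0.00285, SD, n = 2). The near-equal shares depend on totals that include the hepatocyte marker Mir122, at 892 CPM in replicate 1 and 197553 CPM in replicate 2. With Mir122 left out, the members held 9875 of 3585160 counts in replicate 1 and 12681 of 3644211 in replicate 2. Their share was then larger in replicate 2. Of the full totals, the capped-end pair supplied 0.270% and 0.272% and the mirtrons 0.00535% and 0.00689%. The capped-end pair thus had 50.4 times the counts of the mirtrons in replicate 1 (95% interval 43.7 to 58.5, exact binomial) and 39.5 times in replicate 2 (35.3 to 44.3). None of the 4 shares a run of 20 bases with another hairpin of the table, whereas 1084 of 2202 do. A read of at least 20 bases from a member therefore matches no other hairpin of the table exactly, while placement with mismatches was not tested. All 4 had 0 antisense counts in both libraries, and the either-strand column gave them the same counts as the sense column.

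Mir320 was the most abundant member. It had 7802 counts, or 2174 CPM (2126 to 2223, exact Clopper-Pearson interval), in replicate 1, and 7534 counts, or 1659 CPM (1622 to 1697), in replicate 2. Its mean was 1917 CPM ± 364 (SD, n = 2), rank 53 of the 352 detected hairpins. The capped-end hairpin beside Polr3d was thus well above the median detected hairpin, at 111 CPM.

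Mir484, the second capped-end hairpin, varied most among the members. It had 1881 counts, or 524 CPM (501 to 548), in replicate 1 and 4834 counts, or 1064 CPM (1035 to 1095), in replicate 2. The mean was 794 CPM ± 382 (SD, n = 2), rank 88 of the detected hairpins, and the SD was 48.1% of the mean. That share was 19.0% for Mir320, 21.2% for Mir877 and 24.3% for Mir1224.

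Mir877, the mirtron of Abcf1, lay below the median detected hairpin in both libraries. It had 173 counts, or 48.2 CPM (41.3 to 56.0), in replicate 1 and 296 counts, or 65.2 CPM (58.0 to 73.0), in replicate 2. Its mean of 56.7 CPM ± 12.0 (SD, n = 2) put it at rank 204 of 352.

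Mir1224, the mirtron of Vwa5b2, was near the lower end of what was detected. It had 19 counts, or 5.29 CPM (3.19 to 8.27), in replicate 1 and 17 counts, or 3.74 CPM (2.18 to 5.99), in replicate 2. The mean was 4.52 CPM ± 1.10 (SD, n = 2), rank 332 of 352. The 3 counts that a count of 0 allows are worth 0.836 CPM in replicate 1 and 0.661 CPM in replicate 2.

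**Figure D2:**
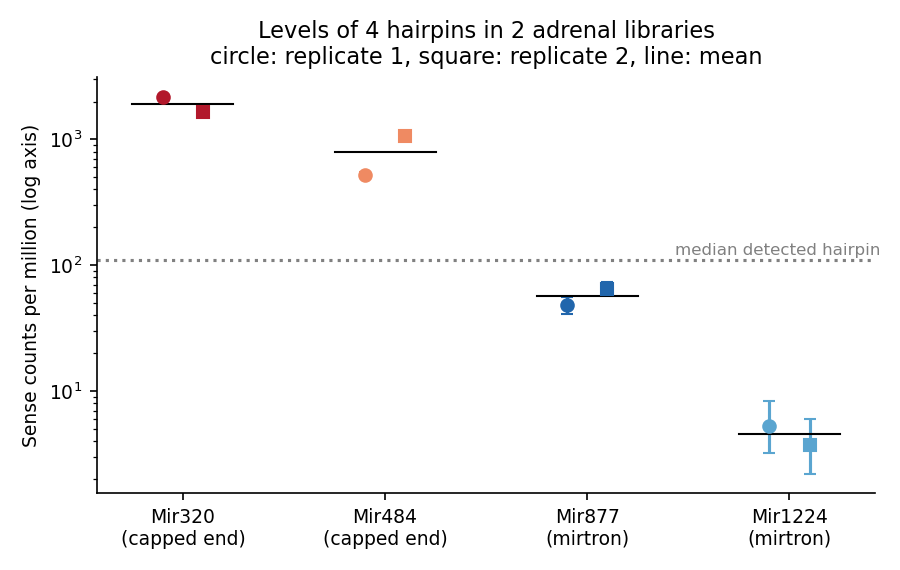
Level of each member in CPM (y axis, log scale) in replicate 1 (circles) and replicate 2 (squares), with 95% Clopper-Pearson intervals and a line at the mean of both. The dotted line is the median mean level of the detected hairpins, 111 CPM. The capped-end hairpins lie above it and the mirtrons below it in both libraries.

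The order Mir320, Mir484, Mir877, Mir1224 was the same in both libraries, and the ranges of neighbouring members over the libraries did not overlap. Mir320 had 4.15 times the counts of Mir484 in replicate 1 (3.94 to 4.36) but 1.56 times in replicate 2 (1.50 to 1.62). Mir484 had 10.9 times the counts of Mir877 in replicate 1 and 16.3 times in replicate 2. Mir877 had 9.11 times the counts of Mir1224 in replicate 1 (5.66 to 15.5) and 17.4 times in replicate 2 (10.7 to 30.3). Each read is a short product and not a tile of the hairpin, so counts were not divided by length. Per 100 annotated bases the mean levels were 2337 CPM for Mir320, 1186 for Mir484, 66.7 for Mir877 and 5.32 for Mir1224, in the same order.

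The hairpins closest in level over both libraries, by Euclidean distance of log2(CPM + 1), came from other loci. For Mir320 they were Mir433 (distance 0.16), Mir361 (0.19) and Mir351 (0.29). For Mir484 they were Mir425 (0.09), Mir148a (0.28) and Mir92-1 (0.28). Mir425 stood at 547 CPM in replicate 1 and at 1110 CPM in replicate 2, and Mir148a, which is also on the hepatocyte marker list below, at 623 and 980 CPM. For Mir877 they were Mir7-2 (0.13), Mir539 (0.23) and Mir345 (0.27), and for Mir1224 Mir3057 (0.09), Mir7689 (0.14) and Mir1945 (0.14). With 2 libraries this likeness is one of level and of a single ratio.

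**Figure D3:**
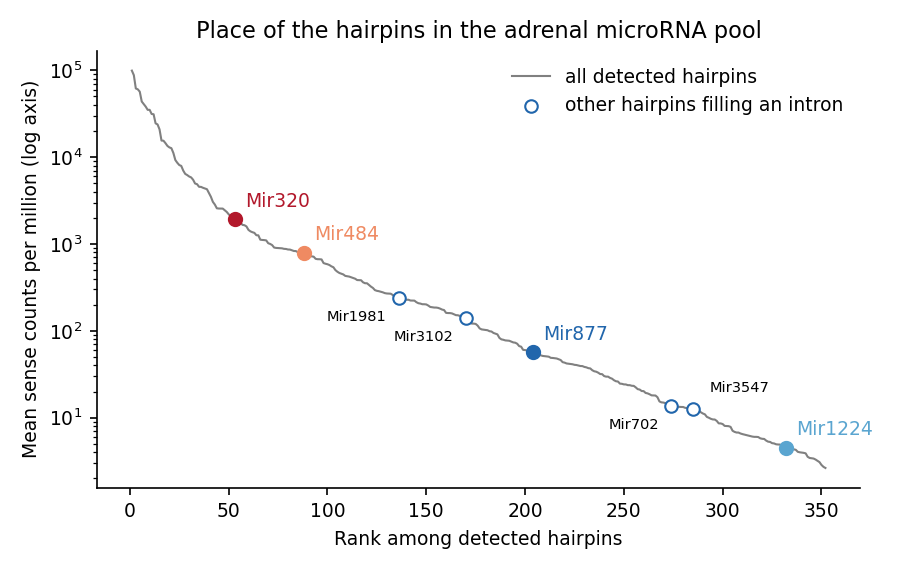
Mean level in CPM (y axis, log scale) of the 352 detected hairpins ordered by level (x axis, rank). Filled points are the members, at ranks 53, 88, 204 and 332, and open points are the 4 other detected hairpins that fill an annotated intron.

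Other hairpins described as made without Drosha were also present, on a list drawn up from general knowledge but with earlier results of these data known. Of its 5 hairpins 4 were detected. The snoRNA-derived Mir1839 stood at 479 CPM in replicate 1 and at 286 CPM in replicate 2. Mir1981, in an intron of the mitochondrial reductase gene Marc2, had 260 and 220 CPM. Mir3102, in an intron of Arhgef17, had 126 and 153 CPM. Mir702, at an intron of the collagen lysyl hydroxylase gene Plod3, had 13.4 and 13.7 CPM. Mir1982, in an intron of the antizyme gene Oaz1, had 4 and 3 counts and was not detected.

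Mir877 and Mir1224 were minor among intron-filling hairpins. Of the 29, 20 had a count in either library and 6 were detected (20.7%, against 16.0% of all hairpins). These were Mir1981, Mir3102, Mir877, Mir702, Mir3547 and Mir1224, in order of mean level. Mir3547, in an intron of Baiap3, had 8.92 and 16.5 CPM in replicates 1 and 2. Mir1981 held 55.4% of the list's counts in replicate 1 and 46.0% in replicate 2, and Mir3102 held 26.9% and 32.0%. Mir877 and Mir1224 together held 11.4% and 14.4%. The hairpin of Mir1981 (chr1:184822407-184822488, minus strand, RefSeq, GRCm38.p6) is shown for comparison, with its first and last letter pairs in capitals.
Mir1981: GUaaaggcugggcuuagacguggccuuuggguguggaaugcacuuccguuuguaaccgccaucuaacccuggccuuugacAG
It has the same GU and AG ends as the mirtrons above, but 60% pyrimidines in its last 25 bases. Of the 23 intron-filling hairpins with a RefSeq sequence, 15 begin with GU and end with AG.

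Drosha and Dicer mark separate steps, and hairpins tied to either gave further reference levels. Mir1306, hosted by Dgcr8, the gene of Drosha's partner, had 40.7 and 92.7 CPM in replicates 1 and 2. Mir3618, the other hairpin listed for Dgcr8, had no entry under that name among the hairpins counted. Mir451a, a red cell hairpin that needs Drosha but bypasses Dicer, had 1208 and 1010 CPM, between Mir320 and Mir484 in mean level.

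The libraries were then compared at each hairpin by a two-sided exact binomial test. It sets the share of a hairpin's reads found in replicate 2 against that library's share of all sense counts, and its p-values were adjusted over the 352 detected hairpins by Benjamini-Hochberg. This compares these libraries, not conditions, and there is no replicate check on it. Of the 352 hairpins, 236 (67.0%) passed at 0.05, of which 107 (30.4% of those tested) were higher in replicate 2 and 129 (36.6%) in replicate 1. Of the members, 3 of 4 passed, a share near that background. With 1 library on each side, fewer cells of a type and less of the RNA per cell cannot be told apart.

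The members did not move together. Mir484 was 2.03-fold higher in replicate 2 (1.92 to 2.14, adjusted p = 2.21e-162 by the exact binomial test). Mir877 was 1.35-fold higher there (1.12 to 1.64, adjusted p = 0.0028 by the same exact test). Mir320 was 1.31-fold higher in replicate 1 (1.27 to 1.35, adjusted p = 4.32e-62 by the same exact test). Mir1224 had a ratio of replicate 2 to replicate 1 of 0.707 (0.345 to 1.44, adjusted p = 0.40 by the same exact test), and at 19 and 17 counts a difference inside that interval was not detectable. Of the 4 other detected hairpins described as made without Drosha, 2 (Mir1839 and Mir1981) passed as higher in replicate 1 and 1 (Mir3102) as higher in replicate 2, also near the background of 67.0%. With Mir122 left out of the totals, Mir1981 had 933 of 3585160 counts in replicate 1 and 998 of 3644211 in replicate 2. Its direction was then the reverse, while those of Mir1839 and Mir3102 stayed. Of the capped-end hairpins 1 was higher in each library, and of the mirtrons 1 was called and 1 was not. Among the 6 detected hairpins that fill an intron, 3 passed as higher in replicate 2 and 1, again Mir1981, as higher in replicate 1. Their median log2 ratio was 0.15. Of the 7 detected at a same-strand start, 0 passed as higher in replicate 2 and 2 as higher in replicate 1, with the same median of 0.15. Of the 8 detected within 500 bases of an opposite-strand start, the only calls were Mir484 and Mir320, with a median of -0.01. Both start-based lists thus had a smaller share of calls than the background of 67.0%. Of the 6 uncalled near an opposite-strand start, Mir673 had 729 and 915 counts in replicates 1 and 2. The rest had at most 115 in either library, and the part of depth in these calls was not tested.

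On the log2(CPM + 1) scale the ratio of replicate 2 to replicate 1 was -0.39 for Mir320, 1.02 for Mir484, 0.43 for Mir877 and -0.41 for Mir1224, while the median detected hairpin stood at -0.04. Measured from that median, 197 of the 352 hairpins lay farther out than Mir320, 191 than Mir1224, 167 than Mir877 and 53 (15.1%) than Mir484. Mir484 was thus in the outer part of the spread and the others near its middle. Of the detected hairpins, 293 (83.2%) were within 2-fold.

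**Figure D4:**
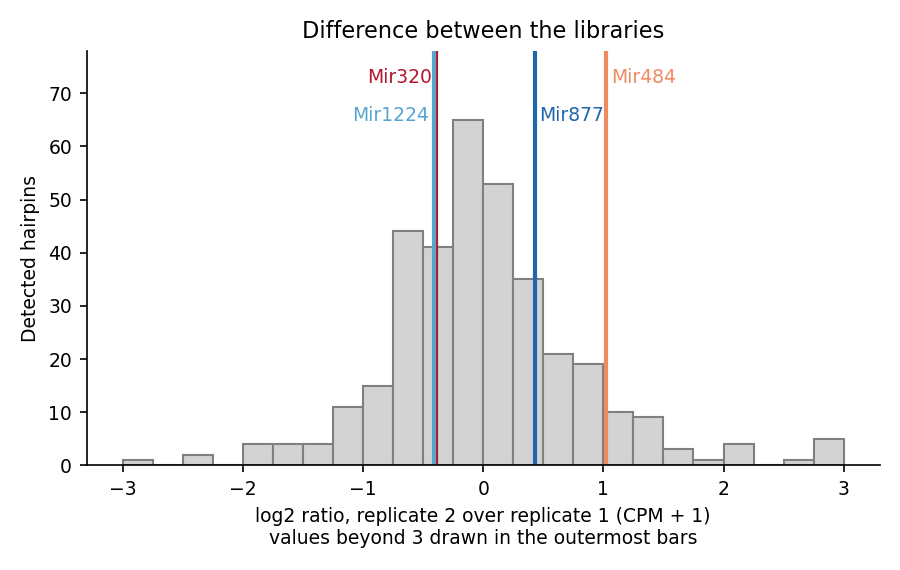
Number of detected hairpins (y axis) by log2 ratio of replicate 2 to replicate 1 on the CPM + 1 scale (x axis), with a vertical line at each member. Mir320 and Mir1224 lie below 0, at -0.39 and -0.41, and Mir877 and Mir484 above it, at 0.43 and 1.02.

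Marker hairpins of several cell types entered these totals unevenly. The 6 hepatocyte markers summed to 0.158% of the counts in replicate 1 and 20.0% in replicate 2, with none at 0, and Mir122 alone had 892 and 197553 CPM. The 9 skeletal muscle markers had 3610 counts in replicate 1 and 6 in replicate 2, of which Mir206 alone gave 3540 and 3. Mir133a-2 and Mir133b were at 0 in both, but each shares 20 bases with 2 other hairpins and so could lose reads placed in several positions. All 4 leukocyte markers (Mir142, Mir150, Mir155 and Mir223) were called higher in replicate 1, with sums of 2280 CPM there and 1077 CPM in the other library. The 4 hairpins listed for kidney (Mir10a, Mir10b, Mir30a and Mir204) were called higher in replicate 1 too, with sums of 101505 CPM and 50208 CPM. Nearly all of these sums came from Mir10a (55753 and 31700 CPM), Mir10b and Mir30a, while Mir204 had 48.5 and 35.7 CPM. Whether the sums reflect kidney cells was not tested. The 5 neuroendocrine and chromaffin markers, known from cells such as those of the adrenal medulla, were all detected. They summed to 4.01% and 3.38%, with Mir375 at 33380 and 29004 CPM. Of the 5, 4 were called higher in replicate 1, and Mir7-2, at 48.5 and 71.6 CPM, was called higher in replicate 2. These calls rest on totals that include Mir122. With Mir122 left out, Mir375 had 119781 of 3585160 counts in replicate 1 and 131718 of 3644211 in replicate 2. Mir375 was then higher in replicate 2, while Mir7b, Mir137 and Mir7-1 stayed higher in replicate 1. The endothelial Mir126a stood at 62826 and 60799 CPM, and the red cell pair Mir451a and Mir144 at 1487 and 1248 CPM together. Mir126a had 225441 and 276110 counts, and the red cell pair 5336 and 5666. With Mir122 left out of the totals, both were thus higher in replicate 2. The part of any of these cell types in the members' differences was not tested.

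With Mir122 left out of the totals, the median detected hairpin moved by 0.30 on the log2 scale, and the share of calls higher in replicate 2 went from 45.3% to 70.1%. Under those totals Mir484 stood at 1.34, Mir877 at 0.74, Mir320 at -0.07 and Mir1224 at -0.15. Mir320, at 2176 and 2067 CPM, then differed little between the libraries, although it still passed the exact binomial test (adjusted p = 0.0024). The directions of all 4 members were the same under each of the 5 denominators tried, and Mir1224 passed under none.

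**Figure D5:**
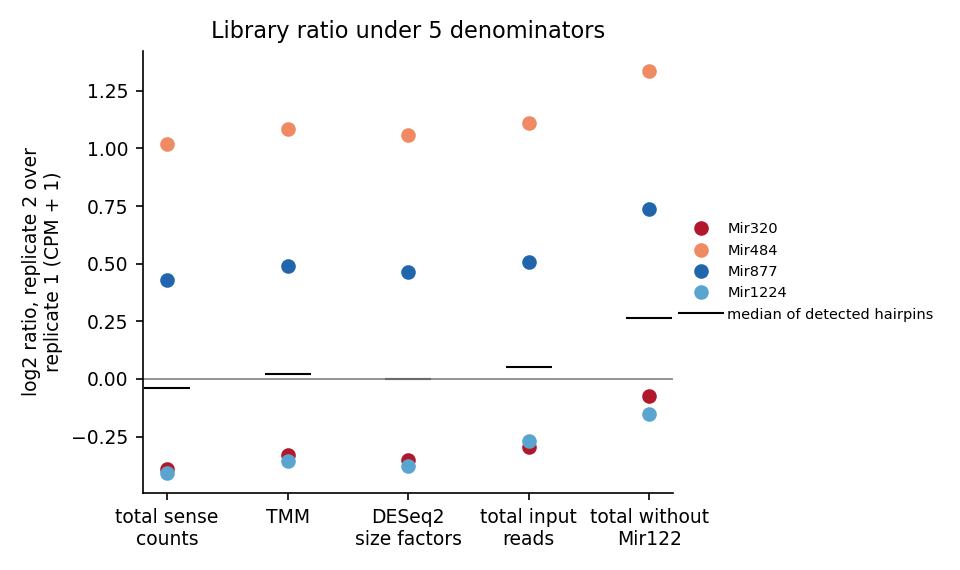
Log2 ratio of replicate 2 to replicate 1 on the CPM + 1 scale (y axis) for the members under 5 denominators (x axis). Black bars are the median of the 352 detected hairpins. Mir484 and Mir877 lie above 0 and Mir320 and Mir1224 below it under each, and Mir320 comes closest to 0, at -0.07, with Mir122 left out.

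Ratios between members within a library need no total. Mir320 supplied 79.0% of the 9875 member counts in replicate 1 (78.2 to 79.8) and 59.4% of the 12681 in replicate 2 (58.6 to 60.3). Mir484 supplied 19.0% (18.3 to 19.8) and 38.1% (37.3 to 39.0). The ratio of Mir320 to Mir484 was thus 2.66-fold higher in replicate 1 (2.50 to 2.83, exact conditional interval). The ratio of Mir320 to Mir877 was 1.77-fold higher there (1.46 to 2.16), and that of Mir484 to Mir877 was 1.50-fold higher in replicate 2 (1.23 to 1.83). For Mir877 to Mir1224 the interval ran from 0.913 to 4.03 and for Mir320 to Mir1224 from 0.531 to 2.21, as replicate 2 over replicate 1, and neither difference was detectable at this depth. Mir484 to Mir1224 was 2.87-fold higher in replicate 2 (1.41 to 5.90). These are 6 ratios of the same 4 hairpins, so they are not independent of each other.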

How the data were processed

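MicroRNA-seq libraries of 2 adrenal glands of 1 group were used. The deposited tables hold raw read counts per microRNA gene, made by the authors for assembly mm10 and GENCODE M21 genes, per the accompanying text files. An aligner or counter is not given in the sources used here. The 4 summary lines, which name no gene and hold 58.6% and 55.8% of input reads in replicates 1 and 2, stayed out of totals and tests. Of input reads, 31.6% and 27.0% mapped to several places and were counted for no gene. Of the 3 count columns the sense column was used, from 8666085 and 10284575 input reads.

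Members were matched through GENCODE M21. Detection required a minimum of 10 counts in each library. The pseudocount of log2 ratios was 1 CPM, and intervals are at 95%. Introns and starts came from all annotated transcripts of other genes. Named were the members, the 3 nearest hairpins to each, the listed Drosha-independent and Dgcr8-hosted hairpins, leading hairpins of the annotation-defined lists and cell type markers. The list of hairpins within 500 bases of an opposite-strand start was added after the annotation was seen. Members and lists were chosen with earlier results of these data known. The binomial test was tested on simulated data that held counting error only. That simulation had no further variation between libraries, so it does not cover the spread between real libraries. Alternatives were edgeR 4.0.16 TMM factors, DESeq2 1.42.0 size factors, totals without Mir122, total input reads, the either-strand column, count minimums of 1, 5 and 50, pseudocounts of 0.1 and 10, levels per base and each library left out. Computation used Python 3.11.15, scipy 1.17.1 and R 4.3.3.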

Additional observations from a re-analysis of the deposited data

How the results depend on the processing

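Of 99 values recomputed under the alternatives, 94 kept their direction and side of the threshold or moved by less than the spread between the libraries. Part of the 94 could not have changed. Leaving out 1 of 2 libraries always moves a mean by less than the SD. Ratios between members are the same in the either-strand column, and the pseudocount does not enter the binomial test. The tally is therefore no measure of robustness. The remaining 5 of the 99 were levels. With total input reads as the denominator, which is larger by construction, mean levels were 816 CPM for Mir320, 344 for Mir484, 24.4 for Mir877 and 1.92 for Mir1224. With the either-strand column, whose total is smaller because reads at hairpins on both strands are ambiguous there, Mir320 stood at 2282 CPM. Between 208 and 251 hairpins were called different between the libraries. The share called ran from 42.5% of 567 tested, at a count minimum of 1, to 77.9% of 267 tested, at a minimum of 50. Under each scaling, column and count minimum tried, 3 members were called. At a minimum of 50 counts Mir1224 could not be tested, so every member tested there was called. The adjusted p of Mir877 ran from 7.24e-08 (totals without Mir122) to 0.0058 (either-strand column), by the exact binomial test. No paired analysis was possible because there is 1 group. Its 19 and 17 counts limit what can be said of Mir1224.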
